A study of Mus musculus with 2 samples.

Results

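The oxidative phosphorylation system of the mitochondrial inner membrane is built from subunits of which most are encoded in the nucleus, and 87 such genes were followed over the cell classes of mouse basolateral amygdala. Members were all gene names beginning with Nduf, Sdh, Uqcr, Cox4, Cox5, Cox6, Cox7, Cox8 or Atp5 that had a column in both deposited count tables, leaving out Ndufa4l2 and 8 Ndufaf assembly factors. They make up 87 of the 21121 genes with a column in both tables. Of these, 82 encode subunits: 36 of complex I, 4 of complex II, 8 of complex III, 18 counted with complex IV and 16 of ATP synthase. The 4 Sdhaf genes encode complex II assembly factors and Atp5s encodes no subunit of the standard enzyme, so these 5 were left out of the complex sums. Ndufa4 was counted with complex IV, where its protein sits, and so was Cox7a2l, known as a factor that joins complexes into supercomplexes. Whether the Cox7a2l protein acts so in these mice was not examined.

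The FGF21 library came from adult C57BL/6 mice that received the liver hormone FGF21 for 3 days (1 mg/kg, 1 dose a day). The vehicle library came from adult C57BL/6 mice given vehicle for 3 days, 1 dose a day. In both, basolateral amygdala of 3 mice was pooled and digested with pronase while actinomycin D held back new transcription, and living cells with tdTomato fluorescence were collected by sorting with Hoechst. The labels name KLB, the co-receptor of FGF21; what drove tdTomato is not given in the sources used here. Each treatment had 1 library, so no test and no p-value could be had, treatment and library cannot be told apart, and every interval covers counting error only. After filtering, 1935 cells with a median of 6838 unique molecules (UMIs) remained in the FGF21 library and 2337 cells with a median of 4232 in the vehicle library.

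Electrons enter the chain at complex I, which oxidises NADH, or at complex II, which oxidises succinate and is also an enzyme of the tricarboxylic acid cycle. Complex III passes them to cytochrome c, complex IV reduces oxygen to water, and ATP synthase uses the resulting proton gradient to make ATP. Complex II is entirely nuclear-encoded, while the other complexes also hold subunits made from mitochondrial DNA. Several complex IV subunits and the c ring of ATP synthase have isoforms from separate genes, some of them known from heart and skeletal muscle, lung, testis or brown fat.

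Cells were grouped by clustering without the members, and 14 of 15 clusters were named from marker lists. Klb was read in 0 of 1935 FGF21 cells, which allows a share of up to 0.155% of cells with a Klb UMI and sets no limit on cells that express it, and in 3 of 2337 vehicle cells, and tdTomato was read in 34.9% of FGF21 and 22.3% of vehicle cells. Most cells were microglia-like (888 FGF21, 1423 vehicle) or oligodendrocyte precursor-like (624 FGF21, 411 vehicle). Also compared were oligodendrocyte-like cells (82 FGF21, 41 vehicle), mural-like cells (40 and 182) and astrocyte-like cells (192 and 99). Choroid plexus-like, endothelial-like, fibroblast-like, erythroid-like and neuron-like cells, 9 to 46 per library, were described by level only. Microglia-like cells lay mostly in cluster 4 in the FGF21 library (860 cells against 9 vehicle cells) and in cluster 5 in the vehicle library (28 FGF21 cells against 1414 vehicle cells). Precursor-like cells were divided likewise, mostly into cluster 7 (527 FGF21, 26 vehicle) and cluster 8 (49 FGF21, 349 vehicle). The libraries shared 12 barcode numbers. Over 13 pairs of a class and the markers of another class, the median marker level in a class that should lack it was 29.7% of its level in the whole library in the FGF21 and 27.0% in the vehicle library, which was taken as the share of free RNA.

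Promoters are shown for the isoform pairs on which the class differences turn, and for 1 housekeeping subunit, to show how they differ in the letters near the start. RefSeq's table for GRCm38.p6 gave windows of 250 bases before to 50 after the start for 71 of the 87 members. Cox4i1 and Cox4i2 had no entry. The letters GCGCANGCG, as bound by the respiratory factor NRF1, occurred on either strand in 22 of the 71 members (31.0%), against 7.03% of all 27025 genes with a window. CCGGAAG, as bound by ETS factors such as GABP, occurred in 19 members (26.8%), against 9.93% of all genes, and TATAAA in 8 (11.3%), against 15.7%. The NRF1 letters were unevenly spread: 8 of 32 members of complex I, 2 of 3 of complex II, 2 of 5 of complex III, 1 of 14 of complex IV (7.14%) and 7 of 13 of ATP synthase. Of 7 members with both of the first motifs, Cox6a1 had the most UMIs. It was the 1 complex IV member with the NRF1 letters and is not typical of that complex in this respect. Its window is chr5:115348909-115349208 (minus strand). The windows of the muscle-type isoforms are chr7:30183921-30184220 (plus strand) for Cox7a1 and chr7:140900397-140900696 (minus strand) for Cox8b, and those of the widely used isoforms are chr9:79759804-79760103 (minus strand) for Cox7a2 and chr19:7217567-7217866 (minus strand) for Cox8a. They are written 5′ to 3′ along the gene's strand, with matches to any of the 3 motifs in capitals.
Cox6a1: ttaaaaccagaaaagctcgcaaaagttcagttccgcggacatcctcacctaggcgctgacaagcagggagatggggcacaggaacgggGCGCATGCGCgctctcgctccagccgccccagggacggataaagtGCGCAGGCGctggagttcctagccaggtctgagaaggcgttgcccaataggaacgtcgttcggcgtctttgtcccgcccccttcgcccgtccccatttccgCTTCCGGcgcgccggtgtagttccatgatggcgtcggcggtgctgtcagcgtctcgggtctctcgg
Cox7a1: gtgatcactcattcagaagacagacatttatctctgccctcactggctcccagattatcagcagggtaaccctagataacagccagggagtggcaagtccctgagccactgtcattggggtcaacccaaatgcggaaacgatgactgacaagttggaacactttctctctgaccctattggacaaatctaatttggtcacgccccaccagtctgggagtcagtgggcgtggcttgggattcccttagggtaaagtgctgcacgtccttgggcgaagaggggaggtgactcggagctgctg
Cox7a2: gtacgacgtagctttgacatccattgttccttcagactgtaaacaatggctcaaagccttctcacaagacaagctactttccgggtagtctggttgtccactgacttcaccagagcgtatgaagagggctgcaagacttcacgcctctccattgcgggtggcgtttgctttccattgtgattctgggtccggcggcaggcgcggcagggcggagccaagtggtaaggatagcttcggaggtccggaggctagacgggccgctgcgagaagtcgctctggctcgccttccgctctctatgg
Cox8b: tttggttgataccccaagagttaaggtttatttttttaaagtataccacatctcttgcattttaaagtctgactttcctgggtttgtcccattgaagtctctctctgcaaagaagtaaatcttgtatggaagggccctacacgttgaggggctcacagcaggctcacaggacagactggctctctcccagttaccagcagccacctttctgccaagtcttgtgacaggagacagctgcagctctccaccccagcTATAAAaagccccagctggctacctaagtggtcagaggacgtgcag
Cox8a: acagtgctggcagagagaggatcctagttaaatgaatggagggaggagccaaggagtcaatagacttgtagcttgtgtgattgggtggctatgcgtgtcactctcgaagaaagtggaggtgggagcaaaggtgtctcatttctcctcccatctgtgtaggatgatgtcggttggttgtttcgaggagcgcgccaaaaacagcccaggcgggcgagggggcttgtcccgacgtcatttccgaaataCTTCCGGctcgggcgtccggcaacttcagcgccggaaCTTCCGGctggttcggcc
The Cox6a1 window held 3 matches to the NRF1 letters, an overlapping pair on opposite strands being one place, and 1 match to the ETS letters. Cox8a held 2 ETS matches and Cox8b 1 TATAAA match, while Cox7a1 and Cox7a2 held none of the 3 motifs. The count of CG dinucleotides was 2 in Cox8b and 7 in Cox7a1, against 19 in Cox8a and 20 in Cox7a2. Over all members the median window held 19 CG dinucleotides, against 7 over all genes. Cox8b had the lowest count of the 71 members and Cox7a1 the third lowest. Low counts were not limited to isoforms with a restricted pattern: Cox6b2, which has one, had 10, while the widely used Cox7b and Ndufc2 had 5 and 8. A match describes these letters only.

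All 5 complexes were well represented. Of the 87 members, 85 had at least 50 UMIs over both libraries, and the exceptions were Cox6a2 (38 UMIs) and Cox7b2 (14 UMIs). Subunits together made up 1.01% of UMIs in the FGF21 cells and 0.864% in the vehicle cells. Complex I gave 31.3% of subunit UMIs in FGF21 and 32.0% in vehicle cells, ATP synthase 28.9% in each library, complex IV 25.2% in FGF21 and 24.4% in vehicle cells, complex III 10.4% and 10.6%, and complex II 4.26% and 4.203%. UMIs mark single molecules caught at their poly(A) end, so they were not divided by transcript length, and levels are given as CPM, UMIs of the gene per 1000000 UMIs of the summed cells.

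In complex I, the accessory subunits Ndufa2 (211 CPM in FGF21, 181 CPM in vehicle cells), Ndufc2 (172 and 148 CPM) and Ndufa3 (134 and 115 CPM) were among the members with the most UMIs. The 4 subunits of complex II are the flavoprotein Sdha (149 CPM in FGF21, 127.5 CPM in vehicle cells), the iron-sulfur protein Sdhb (101 and 73.5 CPM) and the membrane anchors Sdhc (93.2 and 73.6 CPM) and Sdhd (89.0 and 88.5 CPM). Complex III was led by Uqcrh, the hinge protein (236 CPM in FGF21, 208.5 CPM in vehicle cells), ahead of the core protein Uqcrc2 (187 and 166 CPM), Uqcrb (163 and 151 CPM) and Uqcrq (132 and 135 CPM). In complex IV, Cox8a had 358 CPM in FGF21 and 291 CPM in vehicle cells, Cox6c 344 and 260 CPM, Cox7c 328 and 252 CPM, and Cox4i1 298 and 236 CPM. In ATP synthase, Atp5a1, the alpha subunit of the catalytic F1 head, had 430 CPM in FGF21 and 359 CPM in vehicle cells. Atp5g3 (294.5 and 271.5 CPM) and Atp5g2 (284 and 236 CPM) encode the c ring, and Atp5l (206 and 180 CPM) encodes subunit g of the membrane part. These levels are over all used cells, and the libraries differ in their mix of classes. Microglia-like cells, with the lowest subunit share of the compared classes, were 45.9% of FGF21 and 60.9% of vehicle cells. The part of this mix in the levels above was not tested, and ratios within classes are given below.

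Choroid plexus-like cells stood far above all other classes. These epithelial cells make cerebrospinal fluid and carry out much ion transport. The subunits took 4.21% of their UMIs in the FGF21 library (95% interval 4.11 to 4.31, 16 cells) and 4.78% in the vehicle library (4.69 to 4.87, 28 cells). The lowest of the 16 FGF21 cells had a share of 2.03% and the lowest of the 28 vehicle cells 2.32%, and the median cell had 4.11% in the FGF21 and 4.83% in the vehicle library. Among all other used cells the median was 0.922% in the FGF21 and 0.716% in the vehicle library, and the highest single cell reached 2.55% and 2.46%. No other cell therefore reached the median choroid plexus-like cell, and 6 of 1919 FGF21 and 3 of 2309 vehicle cells reached the lowest one of their library. All 6 of the fixed choroid plexus markers were found in the cluster, with a summed level of 46049 CPM in the FGF21 and 26046 CPM in the vehicle library, against 450 to 612 CPM and 169 to 491 CPM in the other named classes. Ependymal markers came next in this cluster, at 348 CPM in the FGF21 and 605 CPM in the vehicle library, against at most 23.1 and 32.8 CPM in the other named classes. By each cell's own marker UMIs, 10 FGF21 and 9 vehicle cells were choroid plexus-like, and 2 and 6 ependymal-like.

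**Figure D1:**
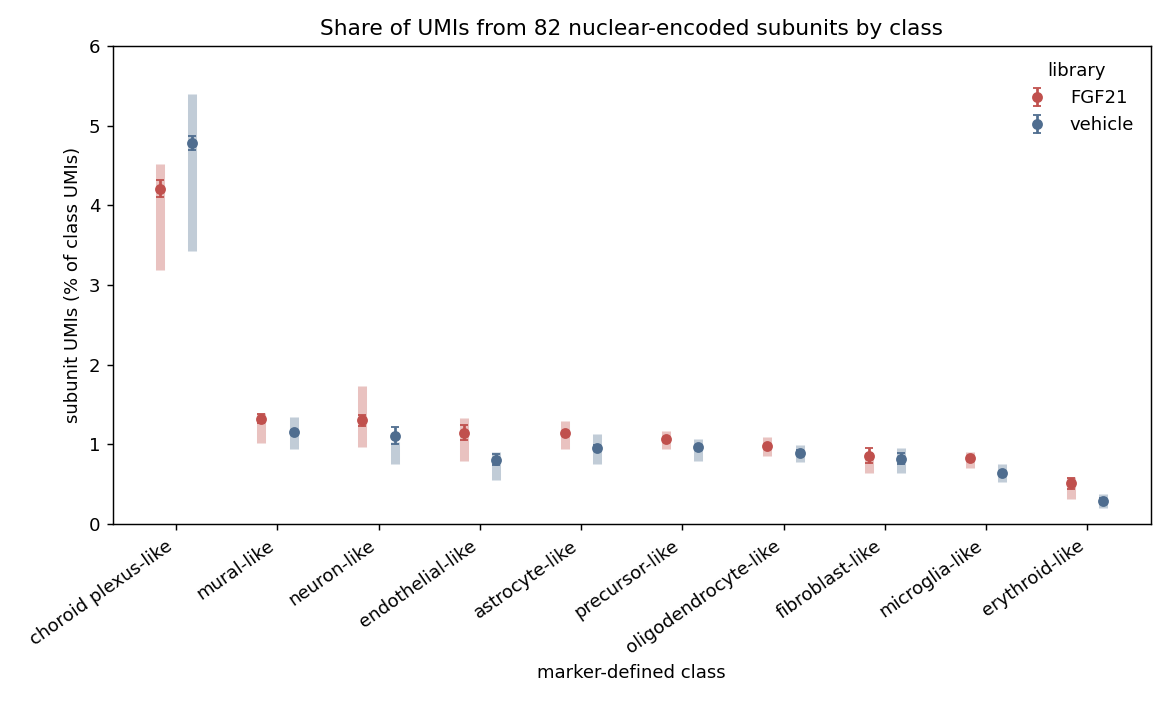
Share of UMIs from the 82 subunits (vertical axis, % of class UMIs) in each marker-defined class (horizontal axis), FGF21 left of vehicle. Points are class sums with exact 95% intervals and pale bars run from the lower to the upper quartile of single cells; choroid plexus-like cells lie at 4.21% and 4.78% and every other class at or below 1.32%.

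The complexes did not differ from the rest by the same factor. Relative to all other used cells, ATP synthase was 4.93 times as high in choroid plexus-like cells of the FGF21 library (4.72 to 5.16) and 7.30 times in the vehicle library (7.04 to 7.57). Complex III had ratios of 4.81 in the FGF21 and 6.97 in the vehicle library, and complex IV ratios of 4.65 and 6.71. Complex I was 3.44 times as high in the FGF21 (3.27 to 3.62) and 4.63 times in the vehicle library (4.44 to 4.82), and complex II 3.19 and 3.90 times. Complex I was therefore a smaller part than ATP synthase in these cells, with 25.2% of subunit UMIs in the FGF21 and 25.0% in the vehicle library, whereas ATP synthase had 32.9% and 33.8%. In the compared classes the order was the reverse, complex I holding 29.5% to 33.4% and ATP synthase 25.8% to 30.3%. The small classes were mixed. ATP synthase was the larger part, with overlapping intervals, in erythroid-like cells of both libraries (31.6% against 27.8% in FGF21, 30.9% against 28.7% in vehicle cells) and in vehicle neuron-like and endothelial-like cells. Complex I was larger in fibroblast-like cells of both libraries and in FGF21 neuron-like and endothelial-like cells. Of these, only FGF21 fibroblast-like cells had intervals that did not overlap.

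Single members followed. Of 84 FGF21 library members above the minimum of 50 UMIs over both sets of cells, 80 were at least 1.5-fold higher in choroid plexus-like cells, against 20.1% of all 12608 genes; in the vehicle library 83 of 85 were, against 24.4% of 12076 genes. The median member ratio was 3.74 in the FGF21 and 5.30 in the vehicle library. This comparison was chosen after the class levels were seen. At the top stood the isoform genes described below and Ndufa1, a small accessory subunit of complex I encoded on the X chromosome, with 741 CPM in FGF21 and 844 CPM in vehicle choroid plexus-like cells (ratios 9.34 and 12.8). Uqcr11, a small subunit of complex III, had a ratio of 8.32 in the FGF21 library. At the other end, Ndufb4 had ratios of only 1.35 and 1.20, and Sdhaf3 had 1 UMI in FGF21 and 4 UMIs in vehicle choroid plexus-like cells. Cox4i2 had 0 UMIs in the FGF21 cells (upper limit 24.2 CPM), so that a difference from the 10.2 CPM of the rest was not detectable at this depth, and 2 UMIs in the vehicle cells (9.53 CPM, against 42.2 CPM in the rest). Among the members with the most UMIs, Cox6c reached 2158 CPM in the FGF21 and 2193 CPM in the vehicle library, Atp5g3 1882 and 2283 CPM, and Atp5a1 1502 and 1840 CPM, while Sdha reached 289 and 343 CPM.

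Mitochondrially encoded transcripts did not follow the nuclear ones in this class. They took 7.86% of UMIs in FGF21 and 3.74% in vehicle choroid plexus-like cells. That is 1.30 times (1.28 to 1.33) and 0.667 times (0.653 to 0.682) the level in the other cells. Subunit UMIs per mitochondrially encoded UMI came to 0.536 in FGF21 and 1.28 in vehicle choroid plexus-like cells, against 0.0994 to 0.213 in every other named class. The low vehicle value depended on how the class was set. The median cell had 7.73% mitochondrial UMIs in the FGF21 and 2.07% in the vehicle library. With classes set by each cell's own marker UMIs, it had 10.2% (10 FGF21 cells) and 12.3% (9 vehicle cells), against medians of 5.44% and 5.31% over all used cells. Electron carrier genes, among them cytochrome c (Cycs) and the complex III subunit cytochrome c1 (Cyc1), were 4.59 times as high in the FGF21 and 5.34 times in the vehicle library, tricarboxylic acid cycle genes 2.31 and 3.69 times, and assembly factors 2.11 and 2.62 times. Ribosomal protein genes, another set of short abundant transcripts, were 1.34 and 1.53 times as high.

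Below choroid plexus-like cells, mural-like cells, which wrap blood vessels, had 1.32% in FGF21 and 1.16% in vehicle cells, neuron-like cells 1.30% and 1.11%, and astrocyte-like cells 1.14% and 0.962%. Precursor-like cells had 1.07% in the FGF21 and 0.964% in the vehicle library, the same as astrocyte-like cells within counting error in the vehicle library. Oligodendrocyte-like cells had 0.976% and 0.897%. Endothelial-like cells (1.15% in FGF21, 0.808% in vehicle cells) and fibroblast-like cells (0.859% and 0.823%) rested on few cells. Astrocyte markers summed to 6513 CPM in FGF21 and 1016 CPM in vehicle endothelial-like cells, and their part in that class's share was not tested. Microglia-like cells had 0.829% in FGF21 and 0.647% in vehicle cells, and erythroid-like cells 0.511% and 0.287%. Microglia-like and erythroid-like cells had the lowest shares in both libraries, although the interval of fibroblast-like cells in the FGF21 library (0.770 to 0.955) included the microglia-like value. In erythroid-like cells the 5 erythroid markers, mostly globin genes, took 553112 CPM in the FGF21 and 692852 CPM in the vehicle library. Those UMIs are in the total that the share is taken of, so the low erythroid-like share is no measure of subunit level among the other transcripts. Mural-like and neuron-like cells did not differ beyond counting error in either library, nor did endothelial-like and astrocyte-like cells in the FGF21 library. Neuron-like cells were few (20 FGF21, 9 vehicle) and their number depended on the setting. At a clustering resolution of 0.5 the class held 5 cells in each library, and by each cell's own marker UMIs 9 and 2, so its place in this order is uncertain.

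Mural-like cells had another mix of COX4 isoforms than the glia. COX4 is the complex IV subunit at which ATP is known to inhibit the enzyme, and Cox4i2, its isoform known from lung, lies at chr2:152754173-152765037 of GRCm38 (plus strand). Cox4i2 had 319 CPM in FGF21 and 438 CPM in vehicle mural-like cells, and at most 8.999 CPM and 22.7 CPM in the other compared classes. It gave 50 of 107 COX4 UMIs in FGF21 (46.7%, interval 37.0 to 56.6) and 229 of 383 in vehicle mural-like cells (59.8%, 54.7 to 64.7). At least 1 Cox4i2 UMI was found in 26 of 40 FGF21 and 96 of 182 vehicle mural-like cells, against 43 of 888 and 126 of 1423 microglia-like cells, in which median depth was 6024 UMIs in the FGF21 and 4175 UMIs in the vehicle library (3742 and 2771 UMIs in mural-like cells). In microglia-like cells 16.5 of the 45 UMIs in the FGF21 and 65.8 of the 133 in the vehicle library are what free RNA alone would give. Cox4i1 itself lay within the range of the other compared classes, with 364 CPM in FGF21 and 295 CPM in vehicle mural-like cells, against 257 to 409 CPM and 197 to 318 CPM in the other compared classes.

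Ndufa4, a complex IV subunit, showed the opposite pattern. It had 76.6 CPM in FGF21 mural-like cells (interval 39.6 to 134) and 28.7 CPM in vehicle mural-like cells (16.1 to 47.3), below the other compared classes at 124 to 236 CPM in FGF21 and 86.3 to 211 CPM in vehicle cells. Its relative Ndufa4l2, which the rule leaves out of the members, had 753 CPM in FGF21 and 996 CPM in vehicle mural-like cells, against at most 10.9 and 41.9 CPM in the other compared classes. Ndufa4l2 UMIs were found in 29 of 40 FGF21 and 144 of 182 vehicle mural-like cells, and Ndufa4 UMIs in 8 and 14 of them. Over all used cells Ndufa4 had 191 CPM in the FGF21 and 144 CPM in the vehicle library, with free RNA taken as 29.7% and 27.0%. The part of free RNA in the Ndufa4 UMIs of mural-like cells was not tested. Both Cox4i2 and Ndufa4l2 are known as targets of hypoxia signalling. Relative to the median of the other compared classes, Cox8a was 1.88 and 1.80 times as high in mural-like cells of the FGF21 and vehicle libraries and Sdhc 2.37 and 1.79 times.

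**Figure D2:**
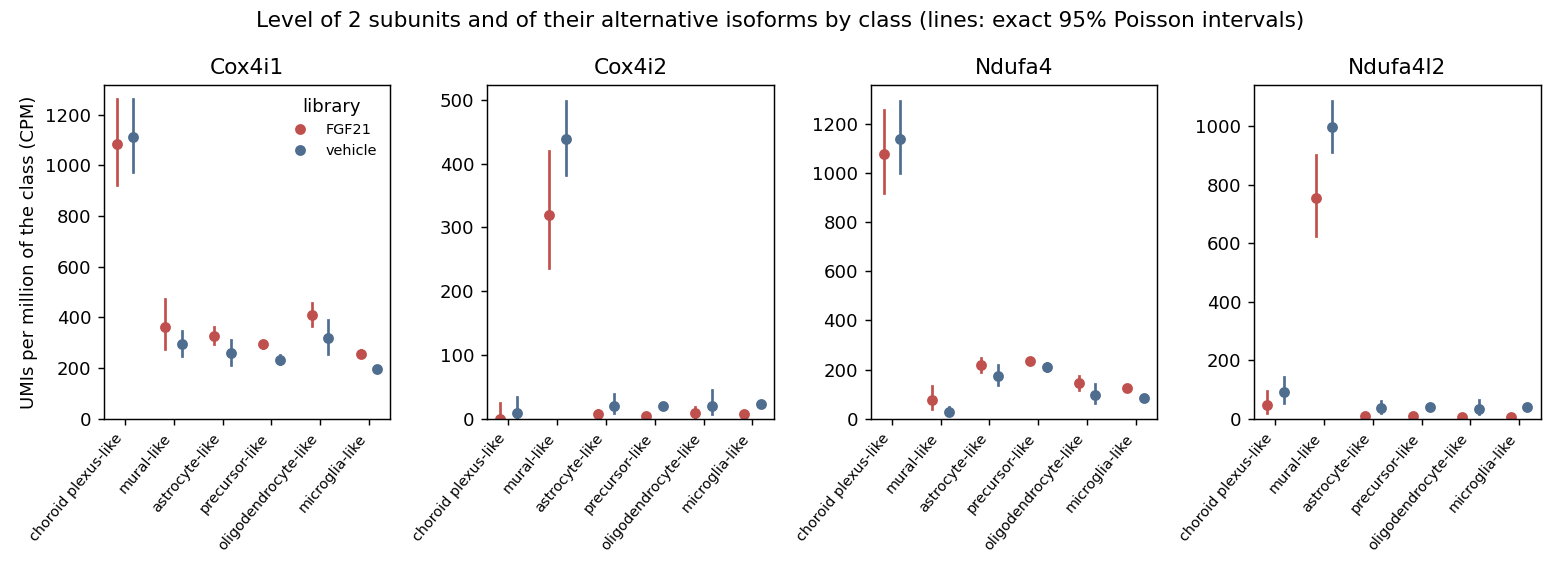
Level (vertical axes, CPM of the class) of Cox4i1, Cox4i2, Ndufa4 and Ndufa4l2 in 6 classes (horizontal axes), FGF21 left of vehicle, with exact 95% Poisson intervals. Cox4i2 and Ndufa4l2 reach 319 and 753 CPM in FGF21 and 438 and 996 CPM in vehicle mural-like cells, where Ndufa4 is at 76.6 and 28.7 CPM.

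Choroid plexus-like cells held isoforms otherwise known from muscle, brown fat and testis. Cox8b, the muscle form of subunit 8 (chr7:140898945-140900446), had 12 of its 18 UMIs in FGF21 and 47 of its 56 in vehicle choroid plexus-like cells, spread over 5 of 16 and 16 of 28 cells with at most 5 and 9 UMIs in 1 cell. That is 4.01% of COX8 UMIs in FGF21 (2.09 to 6.91) and 9.79% in vehicle cells (7.28 to 12.8), against 0% to 1.15% and 0% to 1.30% in the compared classes. Cox7a1, the muscle form of subunit 7a (chr7:30184144-30186078), gave 13.3% of COX7A UMIs in FGF21 (18 of 135) and 18.1% in vehicle choroid plexus-like cells (39 of 216), against 0% to 3.60% and 0.613% to 3.17% in the compared classes. Cox6b2, known from testis (chr7:4751792-4753094), gave 14.2% of COX6B UMIs in FGF21 and 12.7% in vehicle choroid plexus-like cells, against 1.36% to 6.67% and 1.25% to 6.62% in the compared classes. With classes set by each cell's own marker UMIs, the vehicle share was 33.3% (17.3 to 52.8), and with the other settings tried it was 12.5% to 13.1%. In the other cells Cox7a1 and Cox6b2 were low but not absent: precursor-like cells held 26 Cox7a1 and 61 Cox6b2 UMIs in the FGF21 library and 11 and 48 in the vehicle library. The widely used forms were also higher in these cells, Cox8a at 5.51 times the rest in the FGF21 and 8.08 times in the vehicle library, and Cox7a2 at 4.75 and 7.89 times.

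The c ring of ATP synthase differed as well. Its 3 genes, Atp5g1, Atp5g2 and Atp5g3, encode the same mature protein behind different import sequences. Atp5g1 gave 41.2% of their UMIs in FGF21 (37.4 to 45.1) and 41.3% in vehicle choroid plexus-like cells (38.3 to 44.4), against 10.4% to 22.3% and 14.05% to 22.8% in the compared classes. Its level was 1738 CPM in FGF21 and 2012 CPM in vehicle choroid plexus-like cells, 13.3 and 18.5 times that of the other cells. Atp5g2 was the smallest part there (14.2% in FGF21, 11.8% in vehicle cells). Atp5g3 held 53.2% in FGF21 and 56.4% in vehicle mural-like cells and 54.6% and 55.7% in astrocyte-like cells. Microglia-like cells had Atp5g2 as the largest part with 44.8% in the FGF21 and 46.5% in the vehicle library. It was also the largest part in FGF21 oligodendrocyte-like cells (41.8%, against 35.9% for Atp5g3) and level with Atp5g3 in vehicle ones (38.6% each).

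Among the compared classes, microglia-like cells were set apart by Cox7a2l, known as a supercomplex factor. It took 65.0% of COX7A UMIs in FGF21 (940 of 1447, 62.4 to 67.4) and 71.6% in vehicle microglia-like cells (818 of 1142, 68.9 to 74.2). The other compared classes had 36.7% to 41.6% in FGF21 and 30.2% to 41.8% in vehicle cells. Its level was 170 CPM in FGF21 and 140 CPM in vehicle microglia-like cells, 1.79 and 1.97 times the median of the other compared classes, although their subunit sum was the lowest of the compared classes. The next 2 members by this ratio, Sdhd (1.08 and 1.06) and Ndufa9 (0.998 and 1.06), were level with the other classes. Outside the compared classes, the unnamed cluster, with the macrophage markers Mrc1, Cd163 and Pf4 among its top genes, also had high Cox7a2l. Its level there was 214.5 CPM in FGF21 (141 to 312) and 317.5 CPM in vehicle cells (227 to 432). That cluster held 27 Cox7a2l against 14 Cox7a2 UMIs in the FGF21 and 40 against 10 in the vehicle library. Choroid plexus-like cells had 223 and 224 CPM, but a smaller COX7A share (25.2% and 21.8%). The muscle isoform Cox6a2 was read almost only in microglia-like cells, with 17 of 19 UMIs in the FGF21 and 18 of 19 in the vehicle library over 10 and 15 cells. It lies (chr7:128205435-128206387, minus strand) inside Itgad on the plus strand, and whether counting used strand is not given in the sources used here, so these UMIs are uncertain. Itgad itself had 5 UMIs in FGF21 and 1 in vehicle microglia-like cells, and 10 UMIs in FGF21 and 6 in vehicle oligodendrocyte-like cells, where Cox6a2 had 0 in both libraries.

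**Figure D3:**
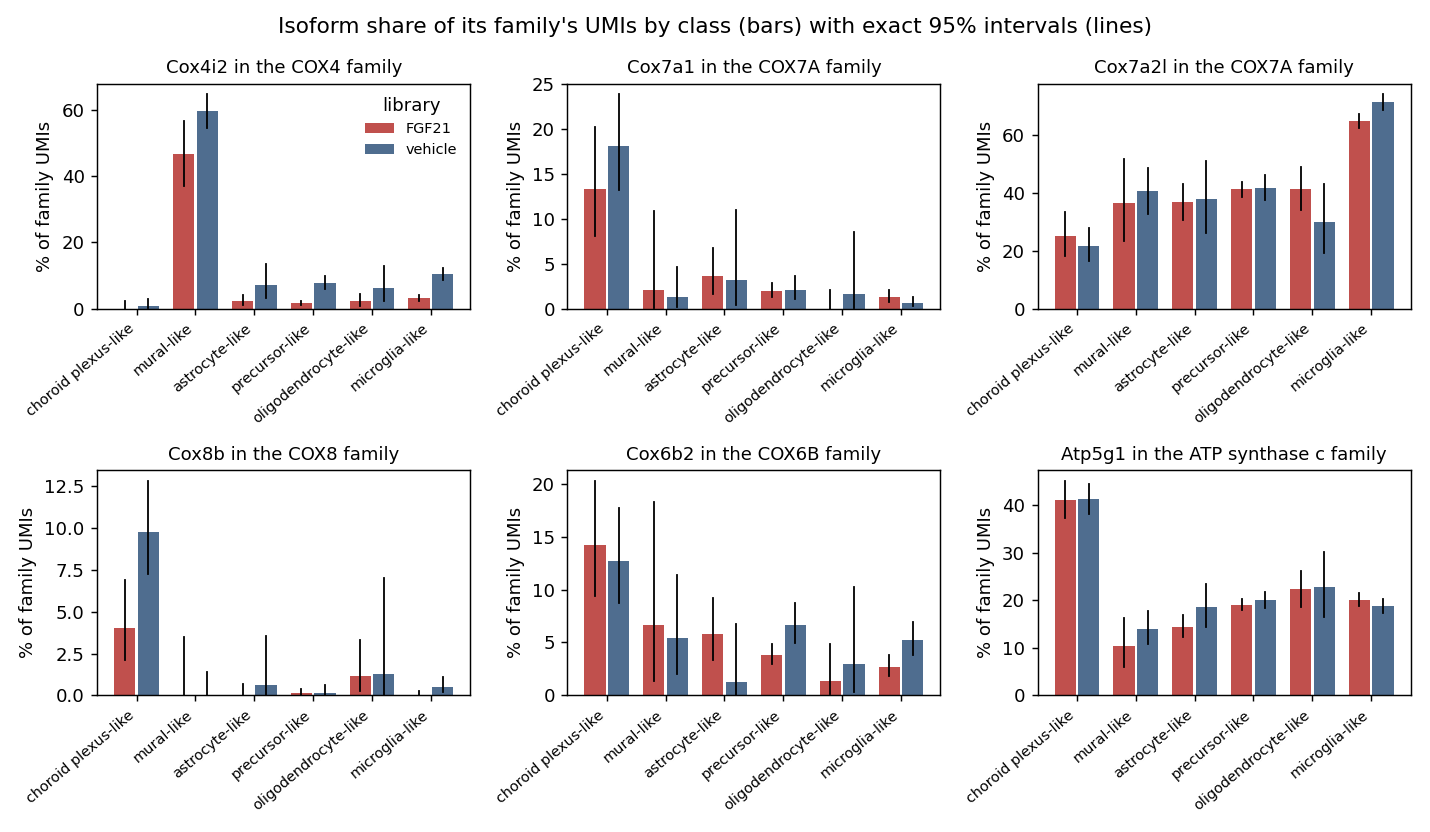
Share of 6 isoforms in the UMIs of their family (vertical axes, %) in 6 classes (horizontal axes), FGF21 left of vehicle, with exact 95% intervals as lines. Cox4i2 stands out in mural-like cells (46.7% and 59.8%), Cox7a2l in microglia-like cells (65.0% and 71.6%), and Cox7a1, Cox8b, Cox6b2 and Atp5g1 in choroid plexus-like cells.

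In precursor-like cells the complex II assembly factor Sdhaf3 was 2.54 times the median of the other compared classes in the FGF21 and 2.74 times in the vehicle library, with 95 and 72 UMIs, Ndufa4 1.76 and 2.31 times and the core complex I subunit Ndufv2 1.42 times in each. In astrocyte-like cells the highest were Ndufa12 at 1.82 and 1.79 times that median, Ndufa4 at 1.62 and 1.91 times and Uqcr10 at 1.61 and 1.59 times. Oligodendrocyte-like cells had Ndufa3 at 1.46 and 1.52 times, Ndufb9 at 1.34 and 1.41 times and Cox4i1 at 1.32 and 1.29 times. Cox7b2, known from testis, had 13 UMIs in FGF21 and 1 in vehicle cells.

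Between treatments, the subunit sum was higher in the FGF21 library in all 5 compared classes. In microglia-like cells it came to 8291 CPM in FGF21 and 6468 CPM in vehicle cells, a ratio of 1.28 (1.27 to 1.30). Astrocyte-like cells had 11377 CPM in FGF21 and 9617 CPM in vehicle cells (1.18, 1.14 to 1.23), and mural-like cells 13231 and 11568 CPM (1.14, 1.09 to 1.20). With only cells of at most 10% mitochondrial UMIs, the mural-like ratio was 1.02 (0.966 to 1.08), and with each cell thinned to 2000 UMIs it was 1.06 (0.981 to 1.14), both including 1. The ratio was 1.11 (1.10 to 1.13) in precursor-like and 1.09 (1.04 to 1.14) in oligodendrocyte-like cells. Sequencing depth per cell was also higher, with a median of 6024 UMIs in FGF21 and 4175 UMIs in vehicle microglia-like cells. Ribosomal protein genes also had higher sums in the FGF21 library in all 5 classes, at 1.36 times in microglia-like, 1.34 in astrocyte-like, 1.29 in mural-like, 1.19 in precursor-like and 1.07 in oligodendrocyte-like cells. Over the alternative settings, thinning to 2000 UMIs per cell among them, the microglia-like ratio ran from 1.25 to 1.33. Apart from the thinned run, the part of depth in these ratios was not tested, nor was that of whatever moved the ribosomal protein genes.

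In microglia-like cells the ratio was largest for complex IV, at 1.37 (1.33 to 1.41), and ATP synthase, at 1.32 (1.29 to 1.36). It was 1.29 for complex III, 1.20 for complex I and 1.17 for complex II. Among the 83 members above the UMI minimum of 50, the call of 1.5-fold or more was met by 8 upward and 1 downward in the FGF21 library, against 12.1% higher and 5.21% lower of all 11369 genes with as many UMIs, so these counts show no excess over all genes. The shift was small and broad: 74 of the 83 had ratios above 1, which is 89.2%, against 53.6% of all genes. With free RNA subtracted 19 members passed upward (22.9%, against 11.4% of all genes), and with each cell thinned to 2000 UMIs 13 of 80 did (16.2%, against 10.6%). The median log2 ratio was 0.33 over these members, 0.03 over all genes, 0.23 over genes with transcripts shorter than 1000 bases and 0.42 over ribosomal protein genes. Uqcr11 of complex III had the highest ratio, with 85.9 CPM in FGF21 and 44.6 CPM in vehicle cells (1.93, 1.65 to 2.25). Cox6c followed with 253 and 147 CPM (1.72, 1.58 to 1.88), ahead of 2 membrane subunits of ATP synthase, Atp5k (1.71) and Atp5j2 (1.70), and of Uqcr10 (1.70), Cox7a2 (1.63), Ndufs6 (1.56) and Ndufa10 (1.51). The lowest were Cox4i2 with 8.14 CPM in FGF21 and 22.7 CPM in vehicle cells (0.358, 0.250 to 0.506), Cox6b2 (0.746) and Sdhaf3 (0.772). The FGF21 library held fewer mural-like cells, 2.07% of used cells against 7.79%, and in it Ndufa4l2, another gene high in mural-like cells, was also lower in microglia-like cells (7.60 CPM in FGF21, 39.3 CPM in vehicle cells). The part of free RNA in the Cox4i2 ratio was not tested.

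In precursor-like cells 2 of 83 members passed 1.5-fold upward and 4 downward, against 5.69% and 4.62% of all 11692 genes. Atp5j2 was higher, with 121 CPM in FGF21 and 73.8 CPM in vehicle cells (1.64, 1.41 to 1.92), and so was Uqcr11, with 116 and 76.6 CPM (1.51, 1.30 to 1.77), and the next was the core complex III protein Uqcrc1 (1.45). Cox4i2 was lower with 5.09 CPM in FGF21 and 19.6 CPM in vehicle cells (0.260), where free RNA alone would give 17.6 of its 30 FGF21 and 32.7 of its 57 vehicle UMIs. Cox6b2 had 10.4 and 16.5 CPM (0.629, 0.424 to 0.937). The assembly factors Sdhaf4 (22.8 and 35.02 CPM, 0.650) and Sdhaf3 (16.1 and 24.7 CPM, 0.653) were lower too, and the 4 Sdhaf genes together had a ratio of 0.800 (0.698 to 0.919), while the complex II subunits they serve had 1.21 (1.13 to 1.30). In mural-like cells the Sdhaf sum, from 19 FGF21 and 28 vehicle UMIs, had a ratio of 2.26 (1.20 to 4.20), and whether the classes differ was not tested. The median log2 ratio was 0.16 over members, -0.01 over all genes, 0.08 over genes with transcripts shorter than 1000 bases and 0.22 over ribosomal protein genes. Mitochondrially encoded subunits had a ratio of 0.953 (0.947 to 0.959) in this class, but 1.13 (1.12 to 1.13) in microglia-like cells.

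In astrocyte-like cells 5 of 76 members passed 1.5-fold upward and 0 downward, against 11.9% and 8.14% of all 6128 genes. The complex I subunit Ndufa5 had 114 CPM in FGF21 and 41.8 CPM in vehicle cells, from 137 and 17 UMIs (2.72, 1.64 to 4.81). Ndufc1 (2.13, 1.35 to 3.51), Sdhb (2.08, 1.37 to 3.28) and Ndufs4 (2.05, 1.11 to 4.16) were higher as well, while the interval of Ndufs6 (1.67, 0.947 to 3.12) included 1. Complex II as a whole had 490 CPM in FGF21 and 327 CPM in vehicle cells (a ratio of sums with an interval of 1.24 to 1.82), the other complexes 1.15 to 1.21. The lowest ratios were those of Atp5f1 (0.749, 0.570 to 0.991), Ndufb2 (0.759) and Ndufs7 (0.782). The median log2 ratio was 0.26 over members, 0.00 over all genes, 0.21 over the short genes and 0.34 over ribosomal protein genes.

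In mural-like cells 7 of 62 members passed 1.5-fold upward and 1 downward, against 9.46% and 15.3% of all 3035 genes. Ndufs1, the largest core subunit of complex I, had 147 CPM in FGF21 and 72.7 CPM in vehicle cells (2.02, 1.15 to 3.48), and Ndufb7 had a ratio of 1.92 (1.10 to 3.28). Atp5d (1.64), Uqcrh (1.54), Sdhc (1.53), Atp5g2 (1.51) and Atp5mpl (1.501) made up the rest, and the intervals of Sdhc and Atp5mpl included 1. Ndufv3 was lower with 51.0 CPM in FGF21 and 134 CPM in vehicle cells, from 8 and 70 UMIs (0.381, 0.158 to 0.793). Sdhd (0.680) and Cox4i2 (0.728, 0.525 to 0.993) came next. The median log2 ratio was 0.17 over members, -0.07 over all genes, 0.21 over the short genes and 0.41 over ribosomal protein genes, so members lay below the short genes. Smooth muscle markers were at 5659 CPM in FGF21 and 1402 CPM in vehicle mural-like cells, and their part in these ratios was not tested.

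In oligodendrocyte-like cells 8 of 70 members passed 1.5-fold upward and 3 downward, against 9.98% and 9.06% of all 3997 genes. Intervals excluded 1 for the higher members Ndufs6 (2.28, 1.12 to 5.24), Sdhb (2.08, 1.12 to 4.22) and Uqcrb (1.65, 1.06 to 2.66). They included 1 for Ndufa5, Cox7b, Ndufa1, Ndufs5 and Atp5j2, with ratios of 1.66, 1.60, 1.55, 1.53 and 1.53. The lower members were the core complex I subunits Ndufs7 (0.532, 0.295 to 0.978) and Ndufs1 (0.621, 0.396 to 0.987) and the accessory Ndufa8 (0.626, 0.360 to 1.11). The median log2 ratio was 0.09 over members, -0.01 over all genes, 0.13 over the short genes, again above the members, and 0.05 over ribosomal protein genes. Atp5j2 was at least 1.5-fold higher in 3 of the 5 classes, and so was Ndufs6. Ndufs1 overlaps Eef1b2 on the other strand (3989 UMIs in FGF21, 2933 in vehicle cells), and Ndufs6 likewise overlaps Mrpl36 (306 and 204 UMIs). In all, 25 members overlap another counted gene, and without strand their reads cannot be told apart.

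**Figure D4:**
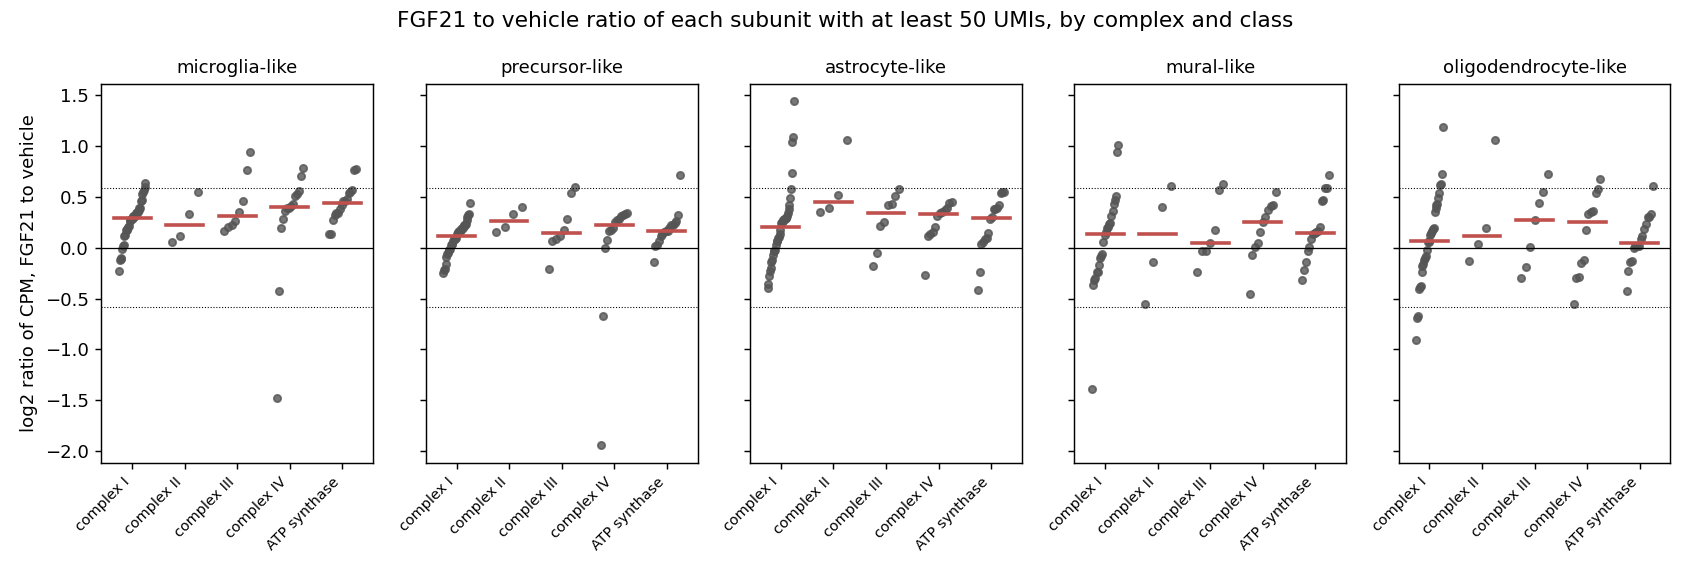
Log2 ratio of CPM, FGF21 to vehicle, (vertical axis) of each subunit with at least 50 UMIs, sorted within its complex (horizontal axis), in the 5 compared classes. Red bars are medians and dotted lines mark 1.5-fold; most points lie between 0 and the upper dotted line in microglia-like cells, and Cox4i2 is the lowest point in microglia-like and precursor-like cells.

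Other gene groups of the pathway had smaller ratios in microglia-like cells. The sums there of tricarboxylic acid cycle genes (1.08, 1.04 to 1.12), assembly factors (1.06, 1.02 to 1.11), biogenesis regulators (1.10, 1.04 to 1.17), ATP transport genes (1.15, 1.12 to 1.19) and electron carriers (1.17, 1.09 to 1.27) were each below the 1.28 of the subunits. Of the 16 tricarboxylic acid cycle genes 0 were past 1.5-fold in either direction, and of the 7 electron carrier genes 2 were higher, against 12.1% of all genes, Etfa (1.501, 1.20 to 1.89), which takes electrons from fatty acid oxidation, and Coq7 (1.58, 1.12 to 2.25), an enzyme of ubiquinone synthesis. Coq7 was also the 1 of 7 electron carrier genes past 1.5-fold in precursor-like cells (1.55, 1.17 to 2.10), against 5.69% of all genes. In precursor-like cells assembly factors had a ratio of 0.930 (0.888 to 0.974). In the other 3 compared classes the intervals of the tricarboxylic acid cycle, assembly factor and biogenesis sums all included 1.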

How the data were processed

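Single cells of the FGF21 and vehicle libraries were captured by BD Rhapsody whole-transcriptome analysis. The deposited tables hold whole-number counts of molecules (UMIs) per cell and gene after the authors' error correction, and per the file headers they came from version 1.9.1 of the BD WTA Rhapsody Analysis Pipeline. The submitters' processing notes name GRCm38; aligner settings, annotation and use of strand were not given in the sources used here. Both tables were read in Python 3.11.15 with numpy 2.4.6, pandas 2.3.3, scipy 1.17.1 and scanpy 1.11.5.

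Kept cells had 500 or more UMIs, 300 or more genes and no more than 25% mitochondrial UMIs, and called doublets (0.767% over both libraries) were removed. From 2455 FGF21 and 2925 vehicle barcodes, with 14585503 and 11130580 UMIs in all, 1935 and 2337 cells remained. Clustering used 2000 variable genes without the members, 30 principal components, 15 neighbours and Leiden resolution 1. Names came from 19 marker lists, with a "-like" ending since they were rebuilt here. UMIs were summed per class and library and scaled by that class's total to CPM. Classes with at least 30 cells in each library were compared, as ratios of CPM. Only for the median log2 ratios were 0.5 UMIs added to single genes. A gene was called at 1.5-fold with at least 50 UMIs over both libraries. Intervals are exact 95% ones (Clopper-Pearson for shares, Poisson for levels, conditional binomial for ratios) and cover counting error only. With 1 library per treatment no test across libraries was made, and treatment was not separated from library, pool or sort. The interval calculation was tested on simulated data.

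Named members were the 4 with the most UMIs in each complex, the isoform families, the members called in a compared class, the 3 highest and 3 lowest ratios in each, and the 3 members highest in each class against the median of the other compared classes. A result that this rule names for complex I is not reported here. Choroid plexus-like cells were set against all other used cells after their level was seen. Members and lists were chosen with earlier results of these data known. Positions are from the annotation of GRCm38, and promoter sequences from RefSeq (GRCm38.p6). Alternatives were other cell filters, clusterings, class rules, UMI minimums, weights and totals, subtraction of free RNA, thinning to 2000 UMIs per cell and centring on the median gene.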

Additional observations from a re-analysis of the deposited data

Results flagged for a closer look

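The members below had FGF21 to vehicle ratios whose intervals lay above 1 in one class and below 1 in another; whether the classes differ was not tested. Atp5f1, subunit b of the ATP synthase stalk, had a ratio of 1.17 in oligodendrocyte precursor-like cells (interval 1.03 to 1.32; 862 FGF21 and 366 vehicle UMIs) and 0.749 in astrocyte-like cells (0.570 to 0.991; 173 and 78 UMIs). Ndufs1, a core subunit of complex I, had 2.02 in mural-like cells (1.15 to 3.48; 23 and 38 UMIs), 0.857 in oligodendrocyte precursor-like cells (0.737 to 0.999; 475 and 274 UMIs) and 0.621 in oligodendrocyte-like cells (0.396 to 0.987; 55 and 33 UMIs). Ndufs7, another core subunit of complex I, had 1.28 in microglia-like cells (1.04 to 1.57; 214 and 177 UMIs) and 0.532 in oligodendrocyte-like cells (0.295 to 0.978; 30 and 21 UMIs). Uqcrq, a small subunit of complex III, had 1.20 in microglia-like cells (1.07 to 1.35; 646 and 569 UMIs) and 0.867 in oligodendrocyte precursor-like cells (0.769 to 0.978; 750 and 428 UMIs).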

How the results depend on the processing

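No paired analysis was possible because each treatment had 1 library; for the same reason no replicate could be left out. Of 324 values under alternatives, 0 reversed and 235 stayed within the error or within 1.5 times the count. The FGF21 to vehicle ratio of the subunit sums was above 1 in each alternative run, from 1.02 (mural-like) to 1.33 (microglia-like), and the causes of the shifts below were not tested. Counts are of members past 1.5-fold, each with the share of all genes called by the same rule and setting in brackets. With at most 10% mitochondrial UMIs, the subunit share was 4.63% in FGF21 and 5.03% in vehicle choroid plexus-like cells and 1.20% in FGF21 mural-like cells, the mural-like ratio was 1.02, and 13 astrocyte-like (12.3%) and 3 mural-like members (8.15%) were higher and 4 mural-like lower (15.5%). With free RNA subtracted, shares in FGF21 and vehicle cells were 1.19% and 0.998% (astrocyte-like), 5.56% and 6.23% (choroid plexus-like), 0.752% and 0.567% (microglia-like), 1.45% and 1.27% (mural-like) and 1.10% and 1.00% (precursor-like, 1.001%), the Cox4i2 share in vehicle mural-like cells was 64.9%, and the ratios were 1.33 (microglia-like) and 1.10 (precursor-like). Then 8 astrocyte-like (18.5%) and 19 microglia-like members (11.4%) were higher, and 2 microglia-like (9.1%), 2 mural-like (21.9%) and 6 oligodendrocyte-like (16.2%) lower. With cells weighted equally, shares were 3.90% and 4.44% (choroid plexus-like) and 1.05% and 0.941% (precursor-like) in FGF21 and vehicle cells, and 0.812% (microglia-like) and 1.24% (mural-like) in FGF21 cells; the microglia-like ratio was 1.26, 12 astrocyte-like members (15.1%) were higher, and 3 astrocyte-like (10.6%), 6 oligodendrocyte-like (11.6%) and 2 precursor-like (5.26%) lower. Centring on the median gene gave 1.25 (microglia-like) and 1.20 (mural-like). With classes set by each cell's own marker UMIs, shares in FGF21 and vehicle cells were 3.80% and 3.52% (choroid plexus-like) and 1.08% and 0.996% (oligodendrocyte-like), and 10 astrocyte-like (11.8%), 2 oligodendrocyte-like (7.87%) and 8 precursor-like members (9.89%) were higher and 3 microglia-like lower (6.2%). Thinned to 2000 UMIs, shares were 3.74% and 4.38% (choroid plexus-like) and 1.04% and 0.946% (precursor-like) in FGF21 and vehicle cells, and 1.09% (astrocyte-like), 0.808% (microglia-like) and 1.22% (mural-like) in FGF21 cells; the ratios were 1.26 (microglia-like, 1.255) and 1.06 (mural-like), 13 microglia-like (10.6%), 2 mural-like (9.33%) and 2 oligodendrocyte-like members (9.96%) were higher, and 0 mural-like (16.8%), 0 oligodendrocyte-like (6.86%) and 0 precursor-like (4.81%) lower. A minimum of 20 UMIs gave 14 higher mural-like members (15.6%), and 1 astrocyte-like (11.5%) and 2 mural-like (19.4%) lower. A minimum of 200 UMIs gave 0 astrocyte-like (6.6%), 1 mural-like (6.21%) and 0 oligodendrocyte-like (4.65%) higher, and 0 microglia-like (2.74%), 0 mural-like (10.4%), 0 oligodendrocyte-like (2.79%) and 1 precursor-like (1.83%) lower. With mitochondrial UMIs left out of the total, shares in FGF21 and vehicle cells were 1.25% and 1.05% (astrocyte-like), 4.57% and 4.97% (choroid plexus-like), 0.882% and 0.683% (microglia-like), 1.43% and 1.24% (mural-like), 1.07% and 0.984% (oligodendrocyte-like) and 1.13% and 1.02% (precursor-like). Leaving out the dividing and Enpp6 clusters, chosen after seeing the data, gave a precursor-like ratio of 1.12.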

Other observations

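Barcodes with over 25% mitochondrial UMIs were not used above. They numbered 204 in the FGF21 and 179 in the vehicle library, with mitochondrial shares of 42.1% and 41.4%. Nuclear-encoded subunits took 0.813% of their UMIs in the FGF21 library (0.776 to 0.851) and 0.899% in the vehicle library (0.864 to 0.934). With mitochondrial UMIs left out of the total, the share was 1.40% in the FGF21 and 1.53% in the vehicle library. All used cells had 1.08% and 0.915% on that measure.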
